A study of Mus musculus with 4 samples.

Results

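Interferon-stimulated antiviral effector genes are the genes that interferons switch on to hinder viruses inside the cell. The set described here holds 43 gene symbols of known interferon-induced effectors, taken by symbol, out of 17762 genes listed in at least 1 library. Of the 43 symbols 42 have a row in all 4 tables, and Rnf213 has none. The symbols were chosen with the KO over WT difference of these same libraries already known, so their KO and WT values are a description and carry no test of their own. The libraries are polyadenylated RNA from adenomas of C57BL/6 mice aged 110 days, sequenced as paired-end reads of 100 bases. All of the mice carry ApcMin, a dominant mutation of Apc that gives mice intestinal tumours. There are 2 libraries labelled ApcMin Strap KO (KO), which the design text calls StrapIEKO, and 2 labelled ApcMin Strap WT (WT). The sources used here give neither the promoter of any Cre, nor the deleted exons, nor whether animals were pooled.

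Type I and type III interferons bind receptors whose Jak kinases activate Stat proteins. Stat2 joins Irf9 in the complex ISGF3, which binds the interferon-stimulated response element (ISRE) in front of its target genes. The effectors act at several steps of infection: membrane proteins block entry or release, RNA-binding proteins and nucleases stop translation or destroy foreign nucleic acid, and ubiquitin ligases of the Trim family act on proteins. In the intestine, the epithelium responds chiefly to type III interferon and the cells beneath it to type I.

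Levels are given in FPKM, fragments scaled to transcript length and library size, which can be compared between genes, and in each pair of values replicate 1 comes before replicate 2. Differences are log2 fold changes of KO over WT from edgeR, fitted on expected counts with TMM scaling, each with its standard error (SE, n = 2 libraries per group). A value in brackets after FPKM values is this log2 fold change. The total of expected counts was 15640931 and 14084814 in KO and 15422921 and 15255209 in WT. Strap itself, the gene of a WD-repeat protein, stood at 7.4 and 10 FPKM in KO, against 61.2 and 43.8 FPKM in WT, so KO libraries held 0.169 of the WT level, with an adjusted p of 0.0942 over all genes in edgeR. The 5 colon markers summed to at most 1.46 FPKM in KO and 5.16 FPKM in WT, while 7 small-intestinal markers summed to 10100 and 7610 FPKM in KO and 12700 and 9230 FPKM in WT, although the label reads colon adenoma. WT replicate 2 stood apart in several of these gut-region markers, with Gata4 at 43.5 and 51.4 FPKM in KO, against 40.4 and 8.25 FPKM in WT. Rbp2 was at 2584 and 1463 FPKM in KO, against 1855 and 190 FPKM in WT, while Fabp6, a gene of the ileum, was at 1860 and 279 FPKM in KO, against 952 and 5605 FPKM in WT. Apoa1 and Lct were lowest in WT replicate 2, at 2889 and 26.2 FPKM. Sis (341 FPKM) and Alpi (175 FPKM) did not set that library apart, since KO replicate 1 held 360 and 169 FPKM. The colon markers other than Aqp8 were highest in WT replicate 2, with Car1 at 3.81 FPKM and Hoxb13 at 0.63 FPKM. Aqp8 was at 0.28 FPKM there and 0.59 FPKM in WT replicate 1. Xist, transcribed from an inactive X chromosome, was at 10.5 FPKM in KO replicate 1 and 54.7 FPKM in WT replicate 1 and at most 0.05 FPKM in both replicates 2, so each genotype held 1 library with Xist. Of the Y-linked genes, Ddx3y was listed at 7.57 FPKM in KO replicate 2 and 8.62 FPKM in WT replicate 2 and not in either replicate 1.

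Most of the effector genes were higher in KO adenomas. Of the 42 listed, 41 passed the filter on low counts, and 36 of these had a log2 fold change above 0 and 5 below 0, while 50.3% of all tested genes were above 0. Their median log2 fold change was 1.36, with quartiles of 0.76 and 2.96, against a median of 0 and quartiles of -0.38 and 0.33 over the 12769 genes tested. In 32 of the 41 each KO library was above each WT library on the CPM scale (library-scaled counts, with TMM factors), an order that 25.4% of all tested genes shared. In 2 of them, Ifitm1 and Isg20, each KO library was below each WT library, an order shared by 24.6% of all tested genes, and 7 overlapped. A log2 fold change above 1 was found for 24 members and for 3.56% of all tested genes. At an adjusted p under 0.05, edgeR called 1 member, Ifi44, and 0.00783% of all tested genes higher. DESeq2 called 26 members higher and 1 lower, against 1.82% and 3.32% of all tested genes. Without WT replicate 2 edgeR called 12 members and 0.321% of all genes higher and 1 member and 1.04% of all genes lower, and called 0 members without KO replicate 1, KO replicate 2 or WT replicate 1. At an unadjusted p under 0.05 edgeR had 29 members higher and 1 lower, against 7.08% and 8.69% of all tested genes. Since the members were chosen with this contrast in view, these counts describe the set and support nothing further. The RNA comes from adenomas, in which fewer cells of a type and less RNA per cell cannot be told apart.

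**Figure D1:**
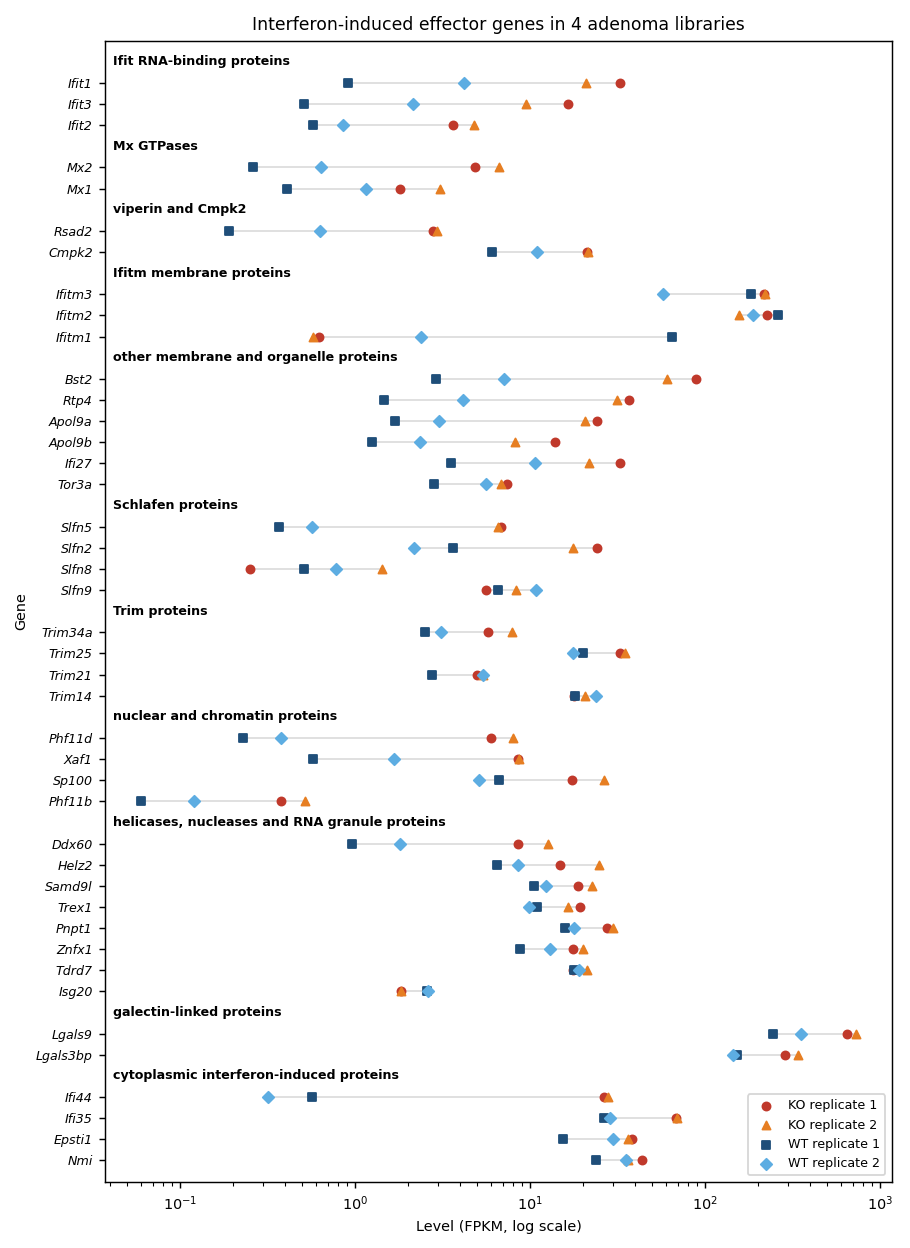
Level of the 42 listed effector genes in each library, in FPKM on a log scale, grouped by family and ordered within a family by the difference between KO and WT. Ifi44, Phf11d, Slfn5 and the Ifit genes show both KO libraries far to the right of both WT libraries, while Tdrd7, Trim14, Slfn9 and Ifitm2 show the 4 libraries mixed.

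The range of levels among the members was wide. In all 4 libraries the same 4 genes were the most abundant: Lgals9, Lgals3bp, Ifitm2 and Ifitm3. They made up 65.7% and 67.8% of the summed FPKM of the 42 genes in KO, and 74.4% and 70.8% in WT. The summed level of all 42 was 2110 and 2130 FPKM in KO and 1130 and 1050 FPKM in WT. Without those 4 genes it was 722 and 686 FPKM in KO, against 290 and 307 FPKM in WT. Under 1 FPKM lay 3 and 2 members in KO and 13 and 8 in WT.

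Promoter sequences are shown for the gene with the largest difference (Ifi44), for strongly differing effectors whose window holds the ISRE letters (Ifit1, Bst2) and for a neighbouring pair of Schlafen genes that differ in their KO and WT values (Slfn5, Slfn9). Each is the RefSeq window on GRCm38.p6, the assembly also called mm10, from 250 bases before the annotated start to 50 after it, read 5′ to 3′ on the strand of the gene. Capitals mark matches to the ISRE letters (GAAA, any 2 bases, then GAAA) on either strand, where overlapping matches count separately.
Ifi44 (chr3:151749861-151750160, minus strand): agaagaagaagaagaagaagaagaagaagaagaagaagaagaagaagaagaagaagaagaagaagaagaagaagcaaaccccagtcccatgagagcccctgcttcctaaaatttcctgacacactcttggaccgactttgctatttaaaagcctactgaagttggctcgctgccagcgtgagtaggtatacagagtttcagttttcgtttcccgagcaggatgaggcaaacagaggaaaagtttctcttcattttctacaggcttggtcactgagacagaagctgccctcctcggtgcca
Ifit1 (chr19:34640639-34640938, plus strand): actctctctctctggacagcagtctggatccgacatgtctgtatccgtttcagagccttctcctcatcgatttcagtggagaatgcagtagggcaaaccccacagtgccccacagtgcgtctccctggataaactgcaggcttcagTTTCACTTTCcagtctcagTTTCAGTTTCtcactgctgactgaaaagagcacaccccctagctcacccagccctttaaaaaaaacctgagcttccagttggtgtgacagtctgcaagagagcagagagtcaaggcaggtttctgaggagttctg
Bst2 (chr8:71537423-71537722, minus strand): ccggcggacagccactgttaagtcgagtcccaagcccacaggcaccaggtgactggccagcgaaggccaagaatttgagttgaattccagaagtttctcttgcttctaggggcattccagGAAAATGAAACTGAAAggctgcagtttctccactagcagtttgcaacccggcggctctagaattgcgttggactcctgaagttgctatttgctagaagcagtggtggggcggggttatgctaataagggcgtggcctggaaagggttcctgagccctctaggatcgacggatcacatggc
Slfn5 (chr11:82951852-82952151, plus strand): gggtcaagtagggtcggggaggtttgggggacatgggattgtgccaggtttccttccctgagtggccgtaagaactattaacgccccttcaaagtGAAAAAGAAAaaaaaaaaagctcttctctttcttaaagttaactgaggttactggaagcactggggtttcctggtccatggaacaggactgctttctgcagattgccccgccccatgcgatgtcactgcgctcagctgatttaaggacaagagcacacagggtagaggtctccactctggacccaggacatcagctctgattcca
Slfn9 (chr11:82991781-82992080, minus strand): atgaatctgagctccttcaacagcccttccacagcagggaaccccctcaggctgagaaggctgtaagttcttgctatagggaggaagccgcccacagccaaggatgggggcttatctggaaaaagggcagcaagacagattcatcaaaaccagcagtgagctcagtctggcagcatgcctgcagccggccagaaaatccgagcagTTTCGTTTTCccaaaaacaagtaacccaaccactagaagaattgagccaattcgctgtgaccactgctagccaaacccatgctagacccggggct

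The table of windows holds 37 of the 43 members, in 48 windows, since some genes have several starts. The ISRE letters occurred in 41.7% of the member windows, against 3.44% of all 32851 windows, and 17 of the 37 members had at least 1 match. The letters of a gamma-activated site, TTCNNNGAA, the element of the interferon gamma response, occurred in 10.4% of the member windows and 8.3% of all windows, in Bst2 and Ifitm3 overlapping an ISRE match. Counted from the start, the first ISRE match began at -104 in Ifit1, -130 in Bst2, -155 in Slfn5 and -45 in Slfn9, and the Ifi44 window held no exact match. Tested members with a match had a median log2 fold change of 1.98 (n = 16, lowest -0.31, highest 3.95), and those with a window but no match 1.11 (n = 19, lowest -5.80, highest 5.96). Each KO library was above each WT library in 11 of the 16 with a match and in 16 of the 19 without. That order was shared by 25.4% of all tested genes. The 6 tested members without a window had a median of 1.81. A match is a description of the letters, and a window without one says only that these letters are not in it.

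The 3 Ifit genes, which encode tetratricopeptide proteins that bind foreign RNA and block its translation, lie together on chromosome 19 between 34550550 and 34650009. Ifit1, whose protein binds the cap of viral RNA, stood at 32.7 and 20.8 FPKM in KO, against 0.91 and 4.21 FPKM in WT, a log2 fold change of 3.45 (SE 0.71). Ifit3, the gene of a partner that stabilises IFIT1 in human cells, stood at 16.6 and 9.5 FPKM in KO, against 0.51 and 2.16 FPKM in WT, with a log2 fold change of 3.34. Ifit2 was lower in level and had 3.65 and 4.8 FPKM in KO, against 0.58 and 0.86 FPKM in WT (2.57). In all 3 each KO library was above each WT library, an order that 25.4% of all tested genes shared. For Ifit1 and Ifit3 the WT libraries were far apart, replicate 2 being 2.21 and 2.11 log2 CPM above replicate 1. Of the 100-base windows in Ifit3 transcripts 31.7% also occur in Ifit3b, so reads could be split between these genes.

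Mx1 and Mx2 encode dynamin-like GTPases that trap viral ribonucleoproteins, on chromosome 16 from 97447035 to 97462906 and from 97536081 to 97560901. C57BL/6 mice carry defective alleles of both, and the RefSeq annotation of mm10 classes both as transcribed pseudogenes, so their RNA need not give a working protein. Mx2 stood at 4.85 and 6.68 FPKM in KO, against 0.26 and 0.64 FPKM in WT, a log2 fold change of 3.72 (SE 0.57). Mx1 stood at 1.8 and 3.08 FPKM in KO, against 0.41 and 1.16 FPKM in WT, a log2 fold change of 1.66 (SE 0.64). In both genes each KO library was above each WT library, an order that 25.4% of all tested genes shared. The WT replicate 2 level of Mx1 was closer to KO than that of Mx2.

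Rsad2 and Cmpk2 are neighbours on chromosome 12, Rsad2 from 26442743 to 26456452 and Cmpk2 from 26469117 to 26479837. Rsad2 encodes viperin, which turns CTP into a chain terminator for viral polymerases, and Cmpk2 a mitochondrial nucleotide kinase. Rsad2 stood at 2.81 and 2.93 FPKM in KO, against 0.19 and 0.63 FPKM in WT (2.83, SE 0.64). Cmpk2 was the more abundant of the pair, with 21.3 and 21.5 FPKM in KO, against 6.11 and 11.1 FPKM in WT (1.36, SE 0.31). The KO libraries differed little from each other in both genes, while WT replicate 2 was above WT replicate 1 in both.

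The 3 Ifitm genes, whose small membrane proteins hinder fusion of viruses with endosomes, did not share a direction. They lie on chromosome 7 between 140954837 and 141010744. Ifitm3 stood at 217 and 221 FPKM in KO, against 184 and 57.5 FPKM in WT, a log2 fold change of 0.89 (SE 0.52), so WT replicate 1 was close to KO and WT replicate 2 well below. Ifitm2 stood at 226 and 157 FPKM in KO, against 261 and 188 FPKM in WT (-0.17), and its groups overlapped. Of the 100-base windows in Ifitm2 transcripts 34.9% also occur in another gene, mostly the predicted gene Gm45717, which overlaps it. Ifitm1 stood at 0.62 and 0.58 FPKM in KO, against 65.1 and 2.38 FPKM in WT, a log2 fold change of -5.80 (SE 1.60). Its high value was in WT replicate 1 alone, and without that library the log2 fold change was -1.98.

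WT replicate 1 also stood apart in most of the endothelial and fibroblast markers. The 6 endothelial markers summed to 0.19 and 0.61 FPKM in KO, against 10.6 and 0.5 FPKM in WT, with 6 of 6 listed in WT replicate 1 and Kdr and Emcn not listed in either KO library. Most of that sum was Cdh5, at 9.1 FPKM in WT replicate 1. Pecam1 alone was highest elsewhere, at 0.08 and 0.45 FPKM in KO, against 0.17 and 0.07 FPKM in WT. The 7 fibroblast markers summed to 1.4 and 1.85 FPKM in KO and 3.45 and 2.1 FPKM in WT. All 7 were listed in WT replicate 1, and 1 was missing from each other library. Pdgfrb alone was lowest in WT replicate 1, at 0.89 and 0.84 FPKM in KO, against 0.41 and 1.38 FPKM in WT. Their part in the Ifitm1 difference was not tested.

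Among the other membrane and organelle proteins none of the 6 genes overlapped between the groups and all were higher in KO, an order that 25.4% of all tested genes shared, and their log2 fold changes had a median of 2.98. Bst2, on chromosome 8 from 71534255 to 71537472, encodes tetherin, which holds budding virions on the cell surface. It stood at 88.7 and 60.5 FPKM in KO, against 2.9 and 7.14 FPKM in WT, a log2 fold change of 3.95 (SE 0.50), a 15.4-fold difference. Rtp4, which encodes a receptor transporter protein, stood at 36.8 and 31.3 FPKM in KO, against 1.46 and 4.13 FPKM in WT (3.65). Ifi27, the gene of a small hydrophobic protein of mitochondria and the nuclear envelope, had 32.5 and 21.7 FPKM in KO, against 3.54 and 10.7 FPKM in WT (1.97). For all 3 the lowest library was WT replicate 1 and the highest KO replicate 1.

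Apol9a and Apol9b, of the apolipoprotein L family, lie apart on chromosome 15 from 77403789 to 77411080 and from 77729047 to 77736382. Apol9a stood at 24.2 and 20.7 FPKM in KO, against 1.7 and 3.01 FPKM in WT (3.30, SE 0.39). Apol9b stood at 13.9 and 8.19 FPKM in KO, against 1.25 and 2.37 FPKM in WT (2.67, SE 0.51). Of the 100-base windows in Apol9a transcripts 40% also occur in Apol9b, so the split of reads between these genes is uncertain, while both show the same order of libraries. Tor3a, a torsin ATPase gene of the endoplasmic reticulum, had a smaller difference, with 7.37 and 6.86 FPKM in KO, against 2.84 and 5.6 FPKM in WT (0.79).

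In 2 of the Schlafen genes each KO library was above each WT library, an order that 25.4% of all tested genes shared. In the other 2 the groups overlapped. All 4 lie on chromosome 11 between 82951349 and 83070678, in the order Slfn5, Slfn9, Slfn8, Slfn2. Slfn5, at the outer end of this order, encodes a nuclear Schlafen protein and stood at 6.86 and 6.57 FPKM in KO, against 0.37 and 0.57 FPKM in WT, a log2 fold change of 3.86 (SE 0.33), a 14.6-fold difference. Slfn2, at the other end, is known for keeping T cells quiescent in mice, and stood at 24.3 and 17.6 FPKM in KO, against 3.63 and 2.19 FPKM in WT (2.89, SE 0.39). The 2 genes between them encode long Schlafen proteins with a helicase-like part. Slfn9 stood at 5.62 and 8.29 FPKM in KO, against 6.61 and 10.9 FPKM in WT (-0.31, SE 0.31), and Slfn8 at 0.25 and 1.43 FPKM in KO, against 0.51 and 0.78 FPKM in WT (0.30, SE 0.81). Both overlapped between the groups, although the printed Slfn9 window holds the ISRE letters as the Slfn5 window does. Slfn8 was highest in KO replicate 2, where 12 T and natural killer cell markers summed to 418 FPKM, against 45.3 FPKM in KO replicate 1 and 72.9 and 51.4 FPKM in WT. Without KO replicate 2 the log2 fold change of Slfn8 was -1.20, and the part of these cells in its values was not tested.

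The Trim genes encode ubiquitin ligases and adaptors with a tripartite motif, and their differences were small beside those of the Ifit genes. Trim25, the ligase that acts on the RNA sensor RIG-I, stood at 32.7 and 35.1 FPKM in KO, against 20.1 and 17.6 FPKM in WT (0.88, SE 0.20). Trim34a stood at 5.79 and 7.86 FPKM in KO, against 2.52 and 3.09 FPKM in WT (1.30), and 39% of its 100-base windows occur in other genes, mostly Trim34b. In both of these each KO library was above each WT library, an order that 25.4% of all tested genes shared. Trim21, the cytosolic antibody receptor, stood at 4.96 and 5.37 FPKM in KO, against 2.77 and 5.39 FPKM in WT (0.37), so WT replicate 2 lay level with KO. Trim14, an adaptor at mitochondria, stood at 17.8 and 20.8 FPKM in KO, against 18.1 and 23.7 FPKM in WT (-0.09), with the 4 libraries mixed. Exons of other genes on the opposite strand cover 38% of the Trim14 exons, and the sources used here do not state strandedness.

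The nuclear genes were among those with the largest differences. Phf11d, a PHD finger gene on chromosome 14 from 59347407 to 59365490, stood at 5.99 and 8.01 FPKM in KO, against 0.23 and 0.38 FPKM in WT. Its log2 fold change of 4.57 (SE 0.44), a 23.7-fold difference, was the largest after Ifi44 among the members higher in KO. The WT values of Phf11d rest on 9.39 and 15.19 expected counts. Its neighbour Phf11b had expected counts of 6.53 and 8.03 in KO and 1 and 2 in WT and did not pass the filter. Xaf1, whose protein binds the apoptosis inhibitor XIAP, stood at 8.52 and 8.68 FPKM in KO, against 0.58 and 1.68 FPKM in WT (2.96, SE 0.53). Sp100, a component of PML nuclear bodies, which repress incoming viral genomes, stood at 17.4 and 26.5 FPKM in KO, against 6.69 and 5.13 FPKM in WT (1.94, SE 0.27). In the 3 tested genes each KO library was above each WT library, an order that 25.4% of all tested genes shared. In Sp100 WT replicate 1 was the higher WT library, unlike in Xaf1.

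The log2 fold changes of the 8 helicase, nuclease and RNA granule genes had a median of 0.81, with values from -0.55 to 2.96. Ddx60, a helicase gene that promotes RIG-I signalling, on chromosome 8 from 61928073 to 62037704, was the one with the largest difference, at 8.58 and 12.7 FPKM in KO, against 0.96 and 1.81 FPKM in WT (2.96, SE 0.37). Helz2, a helicase gene that also acts as a nuclear receptor coactivator, stood at 14.8 and 24.8 FPKM in KO, against 6.49 and 8.55 FPKM in WT (1.41). Samd9l, whose protein restricts poxvirus replication and cell growth, stood at 18.9 and 22.7 FPKM in KO, against 10.6 and 12.4 FPKM in WT (0.88). In these 3 genes KO replicate 2 was the highest library.

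Smaller differences, with each KO library above each WT library, were found for 3 further genes of nucleic acid handling. That order was shared by 25.4% of all tested genes. Znfx1, a helicase gene that senses double-stranded RNA, had a log2 fold change of 0.73, the mitochondrial exoribonuclease gene Pnpt1 0.80 and Trex1, which degrades DNA in the cytosol, 0.82. Trex1 exons are wholly covered by exons annotated to Atrip on the same strand, so reads of these 2 genes could be split. Tdrd7, a Tudor domain gene of RNA granules, stood at 17.6 and 21.3 FPKM in KO, against 17.8 and 19.1 FPKM in WT (0.10) and overlapped. Isg20, an exonuclease gene that degrades single-stranded RNA, stood at 1.84 and 1.84 FPKM in KO, against 2.58 and 2.61 FPKM in WT (-0.55, SE 0.55), which rests on 26 and 25 counts in KO and 41 and 38 in WT. Isg20 was thus the 1 member of this family below WT in both KO libraries, as were 24.6% of all tested genes.

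The abundant members differed by smaller folds on a higher level. Lgals9 encodes galectin-9, a lectin that binds glycans on immune cells, and stood at 653 and 730 FPKM in KO, against 246 and 356 FPKM in WT, a log2 fold change of 1.23 (SE 0.30). Lgals3bp, a secreted glycoprotein gene, stood at 288 and 339 FPKM in KO, against 152 and 145 FPKM in WT, a log2 fold change of 1.11 (SE 0.24). In both genes each KO library was above each WT library, an order that 25.4% of all tested genes shared. These 2 genes alone summed to 941 and 1070 FPKM in KO and 398 and 501 FPKM in WT.

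Of the remaining cytoplasmic genes, Ifi44 had the largest difference of all members. Ifi44, on chromosome 3 from 151730922 to 151749910, encodes a GTP-binding-like protein, and stood at 26.4 and 28.1 FPKM in KO, against 0.57 and 0.32 FPKM in WT, a log2 fold change of 5.96 (SE 0.33), a 62.3-fold difference. The WT values rest on 25 and 14 expected counts, against 1182 and 1129 in KO. It was the 1 member past the threshold over all genes in edgeR (adjusted p = 0.0287), and it no longer passed without KO replicate 1 (0.568), without KO replicate 2 (0.303), without WT replicate 1 (0.0684) or with library size alone as the scaling (0.053), nor by limma on log2(FPKM + 1) (0.0588) or log2(FPKM + 0.1) (0.087). Its log2 fold change lay between 5.61 and 6.41 when each library was left out.

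Ifi35 and Nmi encode partner proteins of the innate response that bind each other. Ifi35 stood at 68.8 and 69.5 FPKM in KO, against 26.4 and 28.8 FPKM in WT (1.36, SE 0.19), with close replicates in both groups. Nmi stood at 44 and 36.2 FPKM in KO, against 23.9 and 35.3 FPKM in WT (0.47, SE 0.28), and with TMM scaling KO replicate 2 lay just under WT replicate 2. Epsti1, an epithelial stromal interaction gene, stood at 38.5 and 36.3 FPKM in KO, against 15.5 and 30 FPKM in WT (0.76), with WT replicate 2 near the KO level. Ifi35 thus kept a clear gap between the groups where its partner did not.

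**Figure D2:**
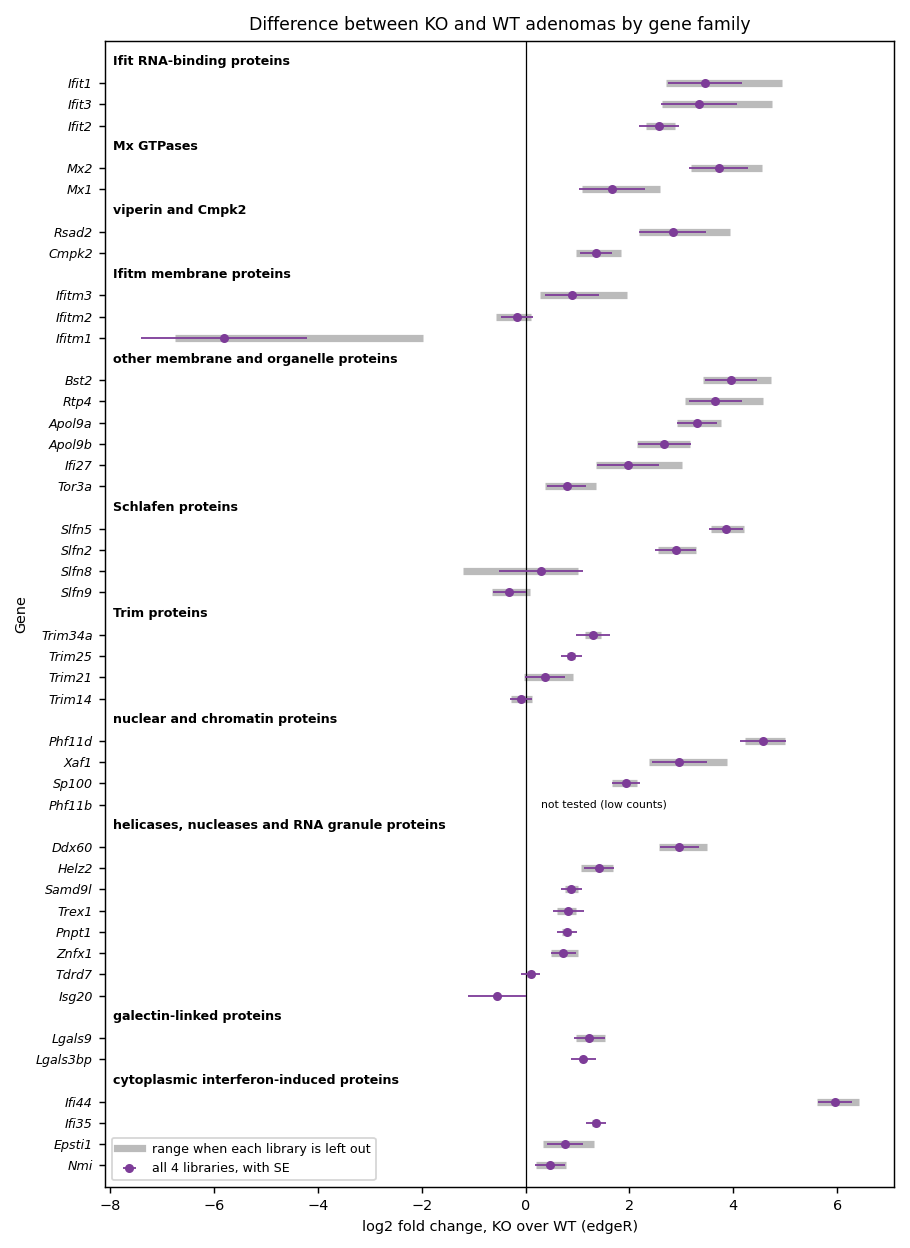
Difference between KO and WT for the 41 tested effector genes, as log2 fold change from edgeR (point) with its SE (line) and the range obtained when each library in turn is left out (grey bar). Values run from -5.80 for Ifitm1, whose bar reaches -1.98, to 5.96 for Ifi44, and 34 genes stay above 0 in every setting tried.

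The members also varied between libraries of the same genotype. WT replicate 2 lay above WT replicate 1 in 31 of the 41 tested members, an order shared by 50.4% of all tested genes, and the median difference was 0.56 log2 CPM over the members and 0 over all genes. The gap was widest for Ifit1 (2.21), Ifit3 (2.11) and Rsad2 (1.73) among those higher in replicate 2, while Ifitm1 (-4.79), Ifitm3 (-1.69), Ifi44 (-0.82) and Slfn2 (-0.74) were higher in replicate 1. Between the KO libraries, replicate 2 was above replicate 1 in 15 of the 41, an order shared by 46.3% of all tested genes, with a median of -0.07 log2 CPM. WT replicate 2 was also the library that stood apart in several, but not all, of the gut-region markers. The part of gut region in the member values was not tested. T and natural killer cell markers were high in KO replicate 2 alone. The median log2 fold change of the members was 1.22 without that library and 1.28 without KO replicate 1.

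Taken as separate pairs of libraries of the same number, the members gave like orders. KO replicate 1 was above WT replicate 1 in 36 of 41 members, with a median difference of 1.5 log2 CPM, and KO replicate 2 above WT replicate 2 in 34 of 41, with a median of 1.22, orders that 49.7% and 51.1% of all tested genes shared. Nothing in the labels ties libraries of one number to a common litter or day. Replicates 1 were the libraries with Xist, so these are also the values within each kind of library. With that split as a term in the fit, edgeR called 11 members and 0.36% of all tested genes higher. The difference was larger in the second pair for Ifi44 (5.65 and 6.40), and smaller there for Ifit1 (5.29 and 2.27), Bst2 (5.05 and 3.04) and Ifi27 (3.35 and 0.94).

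**Figure D3:**
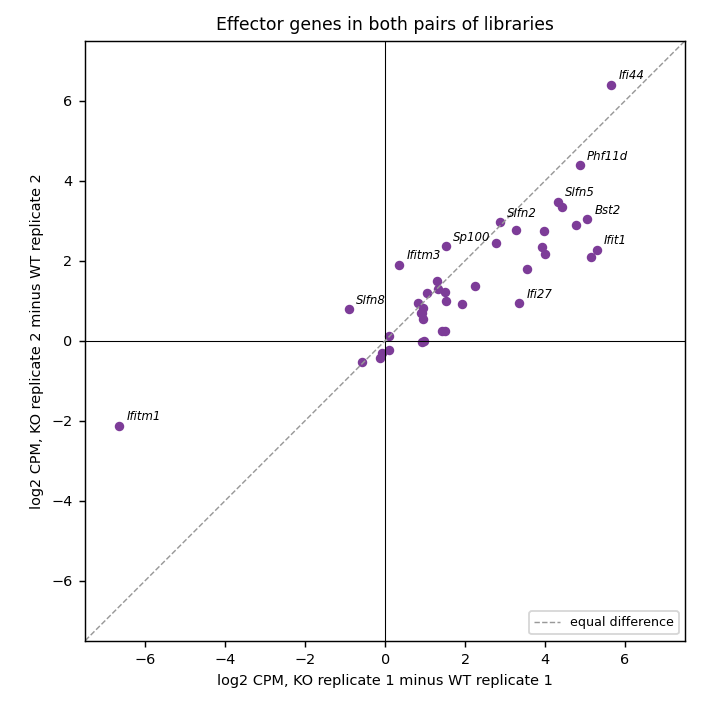
Each point is 1 of the 41 tested effector genes, placed by the difference in log2 CPM between KO and WT replicates 1 (horizontal axis) and between KO and WT replicates 2 (vertical axis), with a dashed line of equal difference. Ifi44 lies highest in both pairs, Ifit1 and Bst2 lie to the right of the line, and Slfn8 is below 0 in the first pair and above 0 in the second.

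Other markers give the cells in these libraries. The 8 epithelial markers, among them Epcam and the keratin gene Krt8, summed to 7720 and 6040 FPKM in KO and 7110 and 8120 FPKM in WT, with 8 of 8 listed in each library. In 2 of the 8, Krt18 and Cdh1, each KO library was below each WT library, as in 24.6% of all tested genes, and 6 overlapped. Krt18 was at 247 and 210 FPKM in KO, against 451 and 405 FPKM in WT (-0.86), and Cdh1 had a log2 fold change of -0.22. The 9 macrophage markers summed to 22.6 and 27.3 FPKM in KO and 16.3 and 22.6 FPKM in WT, with Adgre1, Csf1r, C1qa and C1qc not listed in KO replicate 1. In KO most of that sum was Itgam and Cd14. Itgam was at 8.11 and 9.6 FPKM in KO, against 2.63 and 9.3 FPKM in WT. Cd14 was at 11.4 and 12.5 FPKM in KO, against 5.52 and 7.42 FPKM in WT. Lyz2 leaned the other way, at 0.91 and 1.53 FPKM in KO, against 2.21 and 4.21 FPKM in WT. The 5 tested markers had a median log2 fold change of -0.12. The 6 B and plasma cell markers summed to at most 7.62 FPKM in KO and 6.52 FPKM in WT, and the 6 neutrophil markers to at most 0.84 FPKM in KO and 3.49 FPKM in WT. Of the plasmacytoid dendritic cell markers, Siglech was at 0.16 and 0.47 FPKM in KO, against 0.03 and 0.27 FPKM in WT. Pacsin1 leaned the other way, at 0.23 and 0.47 FPKM in KO, against 0.55 and 0.77 FPKM in WT. The sum of the 4 markers was mostly Klk1, at 62.9 and 73.7 FPKM in KO, against 65 and 217 FPKM in WT. The 3 tested markers had a median log2 fold change of -0.9. The part of any of these cells in the member values was not tested.

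Genes of the interferon pathway outside the effector set were counted from lists made with earlier results of these data known. The lists held 91 genes, of which 66 were listed in at least 1 library and 53 were tested. At an adjusted p under 0.05 edgeR called 0 of the 53 in either direction, against 0.00783% of all tested genes higher and 0% lower, and DESeq2 called 13 higher and 0 lower, against 1.82% and 3.32% of all tested genes. By unadjusted p in edgeR, 15 were under 0.05 and higher in KO and 2 under it and lower, against 7.08% and 8.69%.

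Of 20 interferon genes, the ligands of the pathway, Ifng alone was listed, at 0.06 and 0.19 FPKM in KO, against 0.17 and 0.11 FPKM in WT. The Ifna genes on the list, Ifnb1, Ifnk, Ifne, Ifnl2, Ifnl3 and Ifnab were not listed in any library. Of the 9 receptor and kinase genes 0 were called by edgeR or DESeq2, 1 was lower at an unadjusted p under 0.05, and their median log2 fold change was -0.12. That gene, Ifngr1, the ligand-binding chain of the interferon gamma receptor, stood at 60.3 and 69.2 FPKM in KO, against 96.2 and 93.6 FPKM in WT (-0.52, adjusted p = 0.296 in edgeR). Ifnar1, a chain of the type I receptor, stood at 7.15 and 9.86 FPKM in KO, against 12.1 and 9.67 FPKM in WT (-0.34, adjusted p = 0.497 in edgeR). The kinase genes Jak1 and Tyk2 had log2 fold changes of -0.18 and 0.18.

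Of the 9 Stat and Irf genes 8 had each KO library above each WT library and 1 the opposite, orders shared by 25.4% and 24.6% of all tested genes. Their median log2 fold change was 1.13, and edgeR called 0 and DESeq2 4 higher, against 1.82% of all tested genes in DESeq2. Stat2 stood at 18 and 27 FPKM in KO, against 5.86 and 11.2 FPKM in WT (1.42, adjusted p = 0.211 in edgeR). Irf9, the DNA-binding part of ISGF3, stood at 24.7 and 27.4 FPKM in KO, against 9.79 and 14.2 FPKM in WT (1.13, adjusted p = 0.18 in edgeR). Irf7, which amplifies interferon production, stood at 71.3 and 58.3 FPKM in KO, against 16.1 and 34.4 FPKM in WT (1.41, adjusted p = 0.227 in edgeR). All 3 had WT replicate 2 above WT replicate 1, as most of the effectors did.

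Among 6 negative regulators of the pathway 1 stood far from the others. Usp18, which removes ISG15 and holds the type I receptor inactive, stood at 20.8 and 17.7 FPKM in KO, against 0.38 and 0.76 FPKM in WT, a log2 fold change of 5.11 (SE 0.44), with an adjusted p of 0.0819 in edgeR. Socs1 stood at 5.28 and 4.08 FPKM in KO, against 0.78 and 4.46 FPKM in WT (0.89, adjusted p = 0.627 in edgeR), with WT replicate 2 within the KO range. The phosphatase genes Ptpn1 and Ptpn2 had log2 fold changes of 0.24 and -0.37.

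The effectors' relatives outside the set also differed among themselves. Of 47 relatives 41 were listed in at least 1 library and 29 tested, with a median log2 fold change of 0.69. KO was above WT in each library for 17 of the 29 and below for 1 (25.4% and 24.6% of all tested genes), and 11 overlapped. EdgeR called 0 and DESeq2 8 higher, against 1.82% of all tested genes in DESeq2. Ifi27l2a stood at 11.9 and 7 FPKM in KO, against 0.32 and 0.17 FPKM in WT (5.21, SE 0.84, adjusted p = 0.128 in edgeR). Trim30a stood at 9.9 and 9.54 FPKM in KO, against 0.18 and 0.55 FPKM in WT (4.78, adjusted p = 0.1 in edgeR). Ifit1bl1, an Ifit relative, stood at 73.8 and 48 FPKM in KO, against 9.28 and 18.1 FPKM in WT (2.19, adjusted p = 0.159 in edgeR). Ifi27l2b was far more abundant, with 512 and 411 FPKM in KO, against 191 and 142 FPKM in WT (1.51, adjusted p = 0.162 in edgeR). These 4 were named for having the smallest p of the tested relatives in edgeR, so their lack of overlap is no further result.

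**Figure D4:**
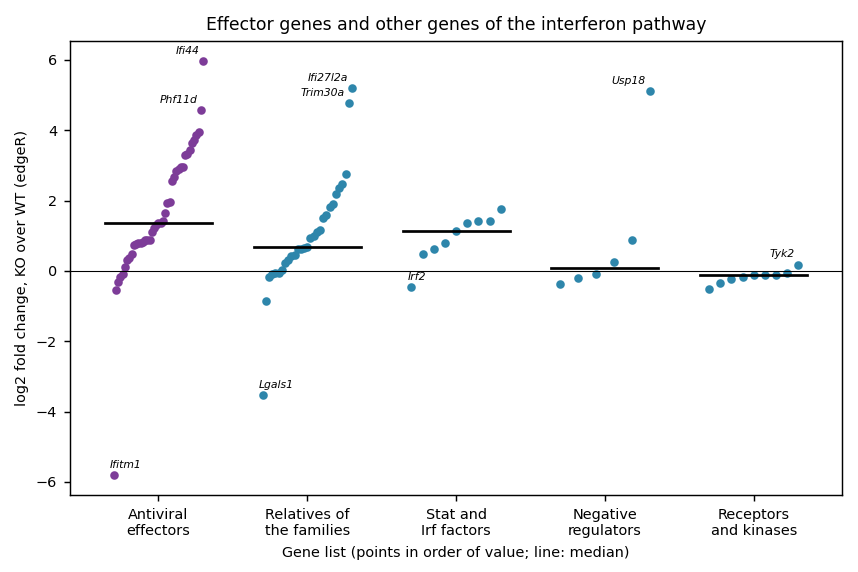
Log2 fold change of KO over WT from edgeR for the 41 tested effector genes and 53 tested genes of the pathway outside them, in order of value within each list, with the median as a line. The medians are 1.36 for the effectors, 0.69 for their relatives, 1.13 for the Stat and Irf genes, 0.07 for the negative regulators and -0.12 for the receptors and kinases.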

How the data were processed

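The deposited tables hold expected counts, FPKM and a transcript length for each gene, per the file headers, and their lowest listed FPKM is 0.01. Named in the submitters' processing notes, without roles, are mm10, RSEM 1.2.12 and Bowtie2 2.2.5. Tables were joined by Entrez identifier, a gene absent from a table was given a count of 0, and 1 row without a gene was left out of each (0.000233% of the total or less). After rounding, KO and WT were set against each other by the quasi-likelihood test of edgeR 4.0.16 (R 4.3.3), with genotype as the only term, TMM factors (0.937 to 1.043), filterByExpr and Benjamini-Hochberg adjustment over 12769 genes. The biological coefficient of variation was 32.5%.

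The members, families and lists were chosen with earlier results of these data known. All members were named, and of each other pathway list the up to 4 tested genes with the smallest p (1 of them is not reported here), while Gata4, Rbp2, Fabp6, Car1, Hoxb13, Xist, Ddx3y, Cdh5, Kdr, Emcn, Siglech, Klk1, Adgre1, Csf1r, C1qa, C1qc, Epcam and Krt8 were named from the marker and sex-linked genes after their values were seen. Alternatives were DESeq2 1.42.0, limma 3.58.1 on log2(FPKM + 1) and log2(FPKM + 0.1), other scalings and filters, a replicate block and each library left out. Counts were also simulated for 2 libraries per group, with a spread between replicates set by the level of a gene alone. In these edgeR called 9 of 50 genes changed by 1 log2 unit, 39 of 49 changed by 2, 45 of 50 changed by 4, and 8 of 12345 unchanged genes. The simulation held no spread particular to a gene and no library that stood apart, so it does not give the power in the real libraries. The labels do not say that libraries come from separate animals. In each genotype replicate 1 held Xist and replicate 2 the Y-linked genes, so its libraries were not repeats of the same RNA. The technical part of the spread behind each p-value was not tested. Chi-square over degrees of freedom between replicate counts was 62.2 in KO and 124 in WT, above sampling noise. Coordinates, promoters and pseudogene classes are from RefSeq on GRCm38.p6. Shared 100-base windows and exon overlaps are from GENCODE M21 transcripts.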

Additional observations from a re-analysis of the deposited data

How the results depend on the processing

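Of the 41 tested members 34 had a log2 fold change above 0 and 2, Ifitm1 and Isg20, below 0 under the main settings and every alternative that tested them, while Ifitm2, Slfn8, Slfn9, Trim14 and Trim21 changed sign when a library was left out. The members' median of 1.36 lay between 1.15 and 1.53 when each library was left out. The number of members called higher, 1 in edgeR, was 26 with DESeq2, 6 with no filter on low counts and 0 with library size alone or with limma on log2(FPKM + 1) and log2(FPKM + 0.1). All genes called, 1 in edgeR, were 657, 27 and 0 under the same settings, and pathway genes outside the set, 0 in edgeR, were 13 with DESeq2 and 2 with no filter. Leaving out each library in turn gave 0 to 12 members, 0 to 174 genes and 0 to 5 pathway genes, with the highest of each without WT replicate 2. That fit assumes that the lone library of a group varies like the other group. The deviations of same-numbered libraries from their group means correlated at -0.123, and the labels tie the numbers to nothing shared, but in both genotypes replicate 1 holds Xist and replicate 2 the Y-linked genes. A replicate block is therefore also a block on that split. With it 11 members, 116 genes and 3 pathway genes were called, and with crossed numbers, a block added after seeing the data, 16, 164 and 4. Higher in KO were 0.107% of all genes with no filter, 0.36% with the block and 0.509% with crossed numbers. The cause of these differences between settings was not tested. Over all genes the median stayed within -0.05 to 0.02. Low counts limit the precision for Phf11b, Isg20 and Slfn8, the KO values of Ifitm1 (6 and 5 expected counts) and the WT values of Ifi44, Mx2 and Phf11d. They also limit it for Rsad2 (11), Ifit3 (15.15) and Mx1 (16.61) in WT replicate 1.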
